A study of Mus musculus with 17 samples.

Results

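The 5 interferon-induced GTPases described here are Igtp, Iigp1, Irgm1, Gbp7 and Gbp2. They were selected on their signals in STZ against control arrays, which earlier readings of these same arrays had shown to be higher after streptozotocin. Every probe set that the platform annotation gives to one of the 5 symbols was taken, giving 8 of the 22626 probe sets on the array and 5 of the 12393 genes with a probe set of their own. Because that contrast chose them, their difference between STZ and control mice is described without a test. The comparison that the choice did not use is ob/ob against control, though its errors come from a fit that also holds the STZ arrays. The spread inside the STZ group, and correlations that use it, come from arrays that chose the genes. They are therefore not independent of the choice.

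RNA from the hypothalamus was hybridised to Affymetrix mouse expression arrays, 1 array per hypothalamus, in male C57Bl/6 mice aged 9 weeks. The 6 STZ mice were wild type and had a single intraperitoneal dose of 200 µg/g body weight of streptozotocin, a toxin that destroys the insulin-producing beta cells of the pancreas. The 5 ob/ob mice lack functional leptin and become obese and insulin resistant, and the labels give them no injection of their own. The 6 control mice were wild type and were injected with vehicle. The question, as the series title and design state it, was how diabetes of either kind changes the hypothalamus. The labels give neither the interval between injection and dissection nor litters or cages, so p-values measure only the spread between these samples.

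Interferons are secreted by cells that sense infection or damage, and act through cell-surface receptors, JAK kinases and transcription factors. The response reaches its genes through DNA elements known as gamma-activated sites (GAS) and interferon-stimulated response elements (ISRE), the second of which Irf1 can bind. Among the genes switched on are the immunity-related GTPases (IRG) and the guanylate-binding proteins (GBP), which coat and disrupt the vacuoles in which intracellular parasites and bacteria live. Iigp1 is an effector of the IRG family. Igtp (also called Irgm3) and Irgm1 are its regulatory members, which sit on the cell's own membranes and hold effectors such as Iigp1 inactive there, and Gbp2 and Gbp7 are guanylate-binding proteins that assemble on pathogen vacuoles. Microglia, astrocytes, endothelium and neurons can all induce these genes.

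The promoter windows of 4 of the 5 genes are printed because they hold the elements through which interferon acts and show where they lie in each gene. The windows are from RefSeq on build GRCm38.p6 and run from 250 bases before to 50 bases after the annotated start, 5′ to 3′ on the strand of the gene. Capitals mark matches, searched on both strands, to the ISRE core (GAAA, any 2 bases and GAAA again) and to the GAS core (TTC, any 3 bases and GAA). An ISRE on the opposite strand reads TTTC, any 2 bases and TTTC. Irgm2, the other regulatory member of the mouse family, is shown beside them. Igtp, Irgm1 and Irgm2 lie on chromosome 11, and Gbp7 and Gbp2 on chromosome 3.
Igtp, chr11:58199306-58199605, plus strand: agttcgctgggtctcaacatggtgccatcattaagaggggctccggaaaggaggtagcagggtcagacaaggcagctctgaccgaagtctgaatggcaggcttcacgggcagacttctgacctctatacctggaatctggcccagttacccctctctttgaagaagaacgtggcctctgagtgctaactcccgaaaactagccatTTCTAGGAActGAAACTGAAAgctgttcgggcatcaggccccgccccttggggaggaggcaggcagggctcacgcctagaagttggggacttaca
Irgm2, chr11:58214727-58215026, plus strand: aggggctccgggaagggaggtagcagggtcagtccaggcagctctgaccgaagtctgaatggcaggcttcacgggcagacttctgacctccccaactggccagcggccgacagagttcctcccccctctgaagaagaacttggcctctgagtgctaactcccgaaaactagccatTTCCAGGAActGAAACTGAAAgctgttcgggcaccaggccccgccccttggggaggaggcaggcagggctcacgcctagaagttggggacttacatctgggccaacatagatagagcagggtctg
Irgm1, chr11:48871371-48871670, minus strand: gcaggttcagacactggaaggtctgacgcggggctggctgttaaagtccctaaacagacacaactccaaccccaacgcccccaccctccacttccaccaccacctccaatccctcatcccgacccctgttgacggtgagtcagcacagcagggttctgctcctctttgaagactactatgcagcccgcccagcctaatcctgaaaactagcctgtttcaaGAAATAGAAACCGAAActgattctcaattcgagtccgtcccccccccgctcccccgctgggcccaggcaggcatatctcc
Gbp7, chr3:142530086-142530385, plus strand: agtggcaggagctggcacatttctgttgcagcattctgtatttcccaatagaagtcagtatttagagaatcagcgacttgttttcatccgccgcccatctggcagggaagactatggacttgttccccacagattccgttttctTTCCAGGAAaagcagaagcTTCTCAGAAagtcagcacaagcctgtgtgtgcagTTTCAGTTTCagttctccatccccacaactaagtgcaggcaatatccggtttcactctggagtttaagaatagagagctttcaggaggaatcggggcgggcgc
Gbp2, chr3:142620413-142620712, plus strand: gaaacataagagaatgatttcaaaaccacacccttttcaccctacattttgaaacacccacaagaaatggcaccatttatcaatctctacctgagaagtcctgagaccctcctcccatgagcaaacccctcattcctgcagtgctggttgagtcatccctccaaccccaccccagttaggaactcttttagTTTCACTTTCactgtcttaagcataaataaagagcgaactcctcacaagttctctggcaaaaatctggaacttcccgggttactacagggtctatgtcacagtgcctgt
Each of the 4 member windows held an ISRE core, against 3.44% of the 32851 mouse promoter windows in the same table. In Igtp the ISRE GAAACTGAAA spanned bases -34 to -25 from the start, with the GAS TTCTAGGAA just before it at -45 to -37. Irgm2 carried the same ISRE letters after the GAS TTCCAGGAA. Irgm1 had 2 ISRE cores that overlap each other, at -30 to -21 and -24 to -15, and no GAS core. Gbp7 had an ISRE at -53 to -44 on the opposite strand and 2 GAS cores further from the start, and Gbp2 had an ISRE at -59 to -50 on the opposite strand and no GAS core. GAS cores were in 8.30% of all windows and both motifs in 0.454%. These matches are a description of the letters and show neither binding nor a cause of the signals given next.

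All values are MAS5 signals, the array software's linear estimate of a transcript's abundance from its probe set, and differences are in log2 with the standard error (SE) from limma. A filter kept the 13576 probe sets with a geometric mean signal over all 17 arrays of at least 435. Of the 8 member probe sets, 4 passed it, 1 each for Igtp, Iigp1, Irgm1 and Gbp7. The other 4 were a second probe set each for Iigp1 and Gbp7 and both probe sets of Gbp2, and their SEs come from a fit without the filter. Igtp passed through its STZ arrays, since its means in ob/ob (436) and control arrays (433) lay at the edge of the filter. The array with the lowest median signal stood at 638 and the highest at 708, and pairs of arrays correlated at 0.954 to 0.972, so no array stood apart by these measures. Among hypothalamic markers, 7 of the 9 measured passed the filter, with oxytocin (Oxt) at 11161 in STZ, 9810 in ob/ob and 11645 in control arrays. Most of the 7 were lower than in control arrays: only 1 was higher in STZ and 1 in ob/ob arrays. Their median difference was -0.12 in STZ and -0.25 in ob/ob arrays. Pomc had 1066 in STZ, 997 in ob/ob and 1678 in control arrays. Markers of regions next to the hypothalamus were higher in ob/ob than in control arrays in 12 of 12 tested genes, with a median difference of 0.28, against 10 of 12 and 0.11 in STZ arrays. In whole tissue, more cells of an expressing type and more RNA per cell cannot be told apart.

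All 8 member probe sets had a higher mean in STZ than in control arrays, and none of the 5 genes was called in ob/ob arrays. Over 1 probe set a gene, the brightest on average, the median difference from control was 0.78 in STZ and -0.04 in ob/ob arrays, where the medians over all tested probe sets were 0.00060 and -0.00051. Of the 4 tested member probe sets, 1 (Igtp) was past the adjusted threshold in STZ against control, where 0.0516% of all tested probe sets were in either direction and 0.0442% higher. Nothing is read from that count, since the contrast chose the genes, and without STZ array 4 or without STZ array 5 it was 0. STZ and control arrays did not overlap in 4 of the 8 probe sets, where 0.239% of all 22626 were higher without overlap.

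The regulatory gene Igtp had signals of 642, 660, 775, 1046, 1495 and 897 in STZ arrays 1 to 6. Its signals in ob/ob arrays were 475, 325, 393, 485 and 537, and control arrays ran from 329 through a median of 474.5 to 505.5. Every STZ array was above every ob/ob and control array, while ob/ob and control arrays lay over each other. The difference was 1.02 ± 0.184 in STZ against control (SE, n = 6 and 6), which is 2.03-fold.

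Irgm1, the regulator that in mice also protects haematopoietic cells during interferon exposure, had the smallest difference of the 5. It had 1085, 1068, 929, 1212, 1321 and 1161 in STZ arrays 1 to 6. In ob/ob arrays it had 949, 756, 823, 754 and 848, and control arrays ran from 569 through 792 to 1076. STZ and control arrays overlapped, because 2 control arrays, at 1022 and 1076, were above STZ array 3. The difference was 0.47 ± 0.128 in STZ against control, or 1.39-fold.

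The effector Iigp1 was read by a pair of probe sets. The brighter one, 1419043_a_at, had 653, 939, 760, 1154, 1606 and 749 in STZ arrays 1 to 6. It had 583, 536, 412, 446 and 560 in ob/ob arrays, and control arrays ran from 451 through 528 to 605.5. STZ arrays again stood above all others, with the lowest of them 47.8 signal units above the highest control, and the difference from control was 0.83 ± 0.169, or 1.78-fold. The dimmer probe set, 1419042_at, ran from 210 to 351 in STZ, from 22.5 to 151 in ob/ob and from 23.2 to 135 in control arrays. Its difference of 1.52 ± 0.452 has a wide error because 1 ob/ob and 1 control array lay near 23, far under the rest of their groups.

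Gbp7, a guanylate-binding protein, had 631, 723.5, 566.5, 787, 833 and 798 in STZ arrays 1 to 6 on probe set 1434380_at. It had 420, 452, 417, 453 and 480.5 in ob/ob arrays, and control arrays ran from 424 through 465 to 618. The single control array at 618 was above 1 STZ array, and every STZ array was above every ob/ob array. The difference from control was 0.59 ± 0.111 in STZ arrays, or 1.51-fold. Its second probe set, 1425156_at, differed by 0.46 ± 0.253, with STZ arrays from 215 to 498, ob/ob arrays from 176 to 424 and control arrays from 186 to 352, so that its 3 groups overlapped.

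Gbp2, a guanylate-binding protein strongly induced by interferon gamma in mouse cells, had 393, 413.5, 337, 810, 907.5 and 486 in STZ arrays 1 to 6 on probe set 1418240_at. It had 344.5, 385, 230, 230 and 309 in ob/ob arrays, and control arrays ran from 276 through 301 to 329. STZ arrays did not overlap control arrays, though STZ array 3 was only just above the highest control and below the highest ob/ob array. The difference from control was 0.78 ± 0.217 in STZ arrays, or 1.72-fold. The probe set 1435906_x_at, whose suffix marks probes that may also bind related transcripts, differed by 0.54 ± 0.271, and its STZ arrays, at 143 to 424, overlapped both other groups.

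**Figure D1:**
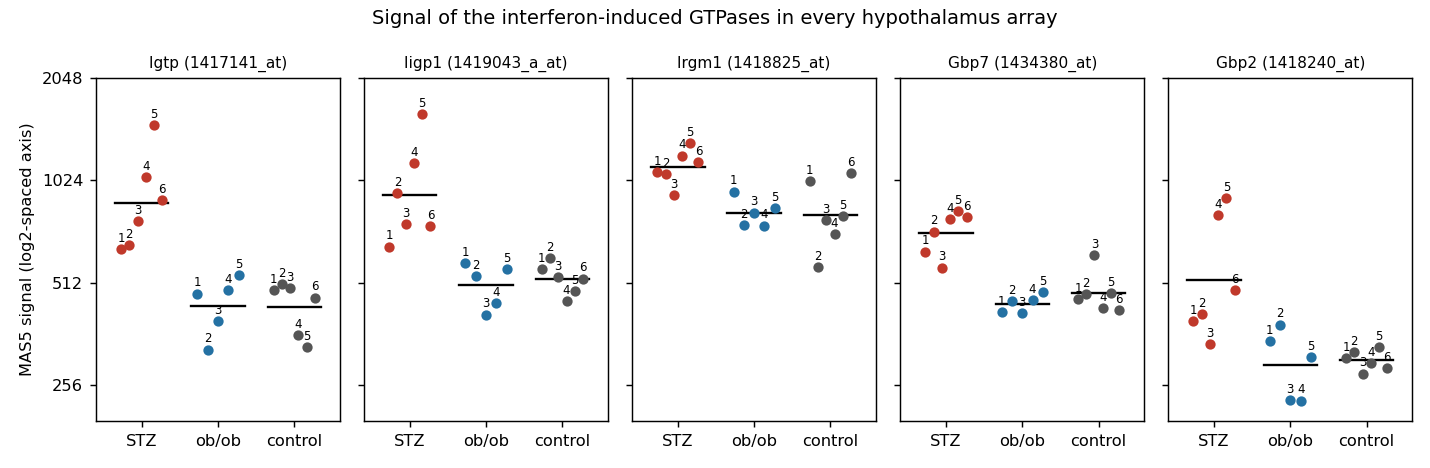
MAS5 signal (log2-spaced axis) of the brightest probe set of each of the 5 genes in 6 STZ, 5 ob/ob and 6 control arrays; points are arrays, numbers are replicates and lines are geometric means. STZ arrays 4 and 5 stand highest for Igtp (1046 and 1495), Iigp1 (1154 and 1606) and Gbp2 (810 and 907.5), and ob/ob and control arrays overlap for every gene.

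The comparison that the choice of genes did not use was ob/ob against control, which shares its 6 control arrays with the STZ contrast. Its SEs, intervals and p-values come from a fit of all 17 arrays, so they also pool the spread of the STZ arrays. With only the 2 compared groups in the fit, the SE was 0.158 for Igtp, 0.143 for Irgm1 and 0.120 for Iigp1. It was 0.114 for Gbp7 and 0.165 for Gbp2 in that fit, and 0 member probe sets were called. None of the 8 member probe sets was called. In that comparison 0.125% of the tested probe sets (17 of 13576) passed an adjusted p of 0.05, and 11.9% an unadjusted one, which 0 of the 4 tested member probe sets did. Igtp differed by 0.0099 ± 0.193 (95% confidence interval -0.39 to 0.41, limma adjusted p = 0.990). Irgm1 differed by 0.026 ± 0.134 (-0.25 to 0.31, adjusted p = 0.963). Iigp1 differed by -0.059 ± 0.177 (-0.43 to 0.31, adjusted p = 0.934), and Gbp7 by -0.10 ± 0.116 (-0.34 to 0.14, adjusted p = 0.785). These intervals do not show that the genes were unchanged. Gbp2, from the fit without the filter, differed by -0.04 ± 0.227 (-0.52 to 0.43, adjusted p = 0.981), a fit in which 0.0619% of all 22626 probe sets were called. Of the 8 probe sets, 6 had a lower mean in ob/ob than in control arrays, and ob/ob and control arrays overlapped in all 8, where 1.33% of all probe sets were without overlap in either direction.

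Set against the STZ arrays directly, ob/ob arrays were lower by log2 values of -1.01 for Igtp, -0.89 for Iigp1, -0.45 for Irgm1, -0.69 for Gbp7 and -0.82 for Gbp2. These values rest on the STZ arrays that chose the genes and are a description. In ob/ob against STZ, 0.0368% of tested probe sets were past the adjusted threshold, all lower in ob/ob. Gbp7 1434380_at was 1 of those 5, from which nothing is read.

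**Figure D2:**
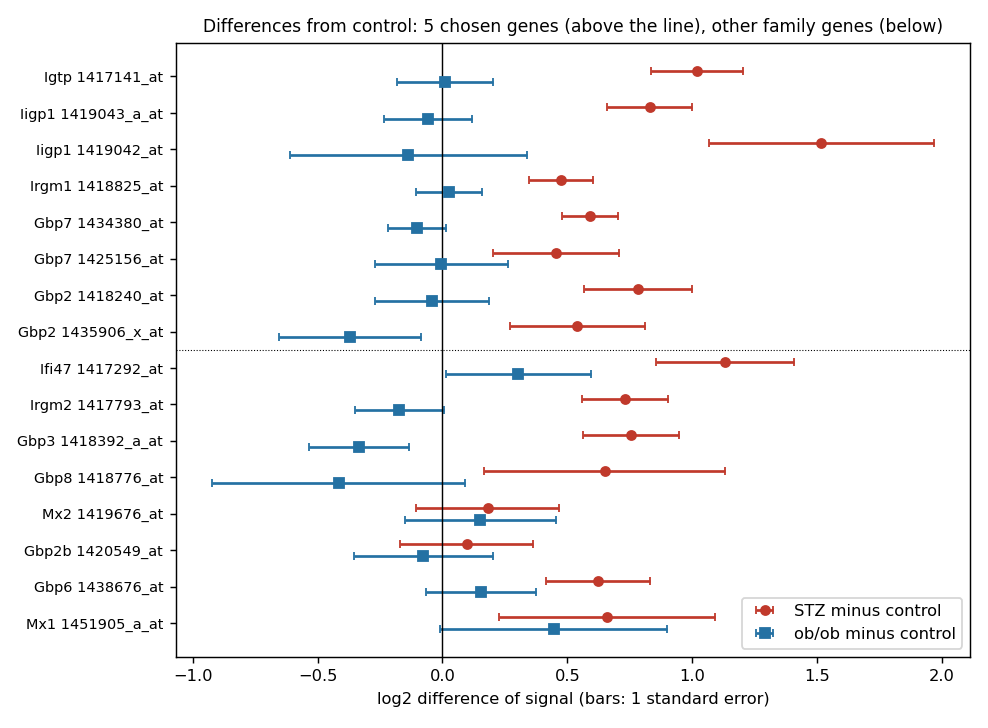
Log2 difference from control of STZ (red circles) and ob/ob (blue squares) for the 8 probe sets of the chosen genes above the dotted line and 8 other family genes below it; bars are 1 SE. STZ values run from 0.46 to 1.52 above the line, where ob/ob values run from -0.37 to 0.03.

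The spread inside the STZ group is a description, since the arrays that widen it also raised the STZ means that chose the genes. On the brightest probe set it was wide for 3 of the 5 genes. The standard deviation (SD) of log2 signal was 0.460 in STZ, 0.289 in ob/ob and 0.266 in control arrays for Igtp. For Iigp1 it was 0.482 in STZ, 0.218 in ob/ob and 0.151 in control arrays. For Gbp2 it was 0.588 in STZ, 0.339 in ob/ob and 0.096 in control arrays. Among all probe sets within 1.25-fold of the same mean signal, the STZ spread of these 3 genes stood at percentile 95.7, 97.3 and 93.7. Irgm1 and Gbp7 did not share it, with STZ SDs of 0.174 and 0.218 that stood at percentile 56.4 and 52.9. The second probe sets differed from the first: the STZ SD of Iigp1 1419042_at, at 0.308, stood at percentile 14.1 and under its SD in ob/ob and control arrays, that of Gbp7 1425156_at (0.492) at percentile 82.4 and that of Gbp2 1435906_x_at (0.621) at percentile 79.3. The median STZ SD over all tested probe sets was 0.128.

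The wide spread came mainly from STZ arrays 4 and 5. STZ array 5 was the highest of the 6 for all 5 genes and for 6 of the 8 probe sets, where it was the highest for 13.6% of all tested probe sets. STZ arrays 4 and 5 were the 2 highest for 7 of the 8 probe sets, against 6.89% of all tested probe sets. In the other, Gbp7 1434380_at, array 6 came between them. Nothing is read from these counts, since both arrays also raised the STZ means that chose the genes. Averaged over the 5 genes, STZ array 5 stood at 2.47 times and STZ array 4 at 2.04 times the control mean. STZ arrays 6, 2, 1 and 3 stood at 1.63, 1.50, 1.34 and 1.32 times that mean, so all 6 were above it. On the same scale ob/ob arrays ran from 0.865 to 1.08 and control arrays from 0.889 to 1.08. Without STZ arrays 4 and 5, the difference from control was 0.77 for Igtp, 0.55 for Iigp1, 0.39 for Irgm1, 0.50 for Gbp7 and 0.42 for Gbp2.

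**Figure D3:**
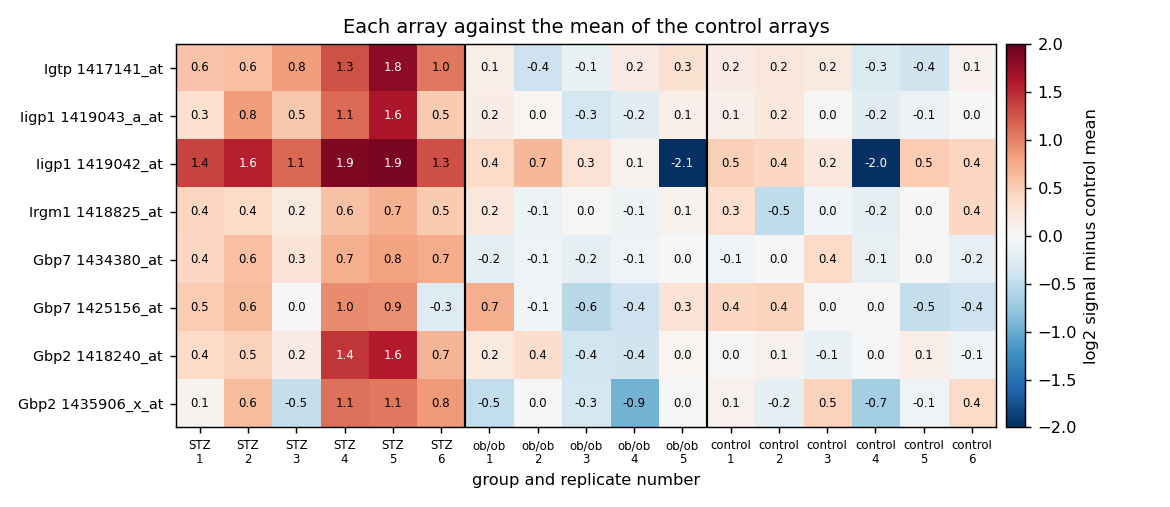
Log2 signal of each of the 17 arrays minus the control mean, for the 8 probe sets (rows) in STZ, ob/ob and control arrays (columns); red is higher and blue lower. Columns STZ 4 and STZ 5 are the reddest of the STZ block, and the dark blue cells are the low values of Iigp1 1419042_at in ob/ob 5 and control 4.

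Iigp1 and Gbp2, and Igtp and Iigp1, passed a test of variation within groups, while the other 8 pairs of the 5 genes did not. Neither pair passed without STZ arrays 4 and 5, which also raised the STZ means that chose the genes. The p-values of these pairs are therefore not independent of that choice. With each array taken as its deviation from its own group mean, all 10 pairs of the 5 genes were positively correlated over the 17 arrays, with Pearson r from 0.13 to 0.84 and a median of 0.50. For comparison, Igtp's correlations with all other tested probe sets had a 5th percentile of -0.47 and a 95th of 0.46. Iigp1 and Gbp2 were the closest pair, with r = 0.84 and Spearman's rho = 0.81 (permutation p = 0.00231 for r and 0.0024 for rho, n = 17). Igtp and Iigp1 followed, with r = 0.73 and rho = 0.69 (permutation p = 0.00612 and 0.00918). Adjusted over the 10 pairs computed, these were 0.0231 and 0.0306 for r, and no other pair was under 0.05. For both pairs the adjusted p was above 0.05 after quantile normalization (0.0649 for Iigp1 and Gbp2, 0.093 for Igtp and Iigp1) and without STZ array 1 (0.0699 and 0.0978), STZ array 4 (0.106 and 0.122) or STZ array 5 (0.13 and 0.314), with r from 0.52 to 0.83. For Igtp and Iigp1 it was also above 0.05 without STZ array 3 (0.0752), control array 4 (0.0602) or ob/ob array 5 (0.0505). Without the 2 arrays farthest from the median of the first gene, r was 0.74 for Iigp1 and Gbp2 and 0.45 for Igtp and Iigp1. Without STZ arrays 4 and 5 together, r was 0.52 for Iigp1 and Gbp2 and 0.35 for Igtp and Iigp1 (permutation p adjusted over the 10 pairs = 0.739 for both), so both relations rest on those arrays.

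Inside the STZ group alone, r ran from 0.68 to 0.92 over the 10 pairs, with a median of 0.84. These arrays chose the genes, so the p-values given for them are a description. The pair of Irgm1 and Gbp2 had r = 0.92 and rho = 0.94 (exact permutation p = 0.00278 and 0.0167, n = 6), and that of Irgm1 and Gbp7 r = 0.92 and rho = 0.89 (exact permutation p = 0.00833 and 0.0333). With 6 arrays the background is wide: the 95th percentile of the correlation with all other tested probe sets was 0.79 for Irgm1, 0.83 for Gbp7 and 0.76 for Gbp2, under the values of these pairs. After Benjamini-Hochberg adjustment over the 10 pairs, 3 pairs were under 0.05 for r and none for rho, whose smallest adjusted p was 0.0833. Without the 2 arrays farthest from the median of the first gene, r ran from -0.08 to 0.91, and that of Iigp1 and Gbp2 was 0.09. In the 6 control arrays the same pairs ran from -0.41 to 0.86 with a median of -0.03, and 5 of 10 were positive. The difference between the STZ and control correlations was not tested.

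**Figure D4:**
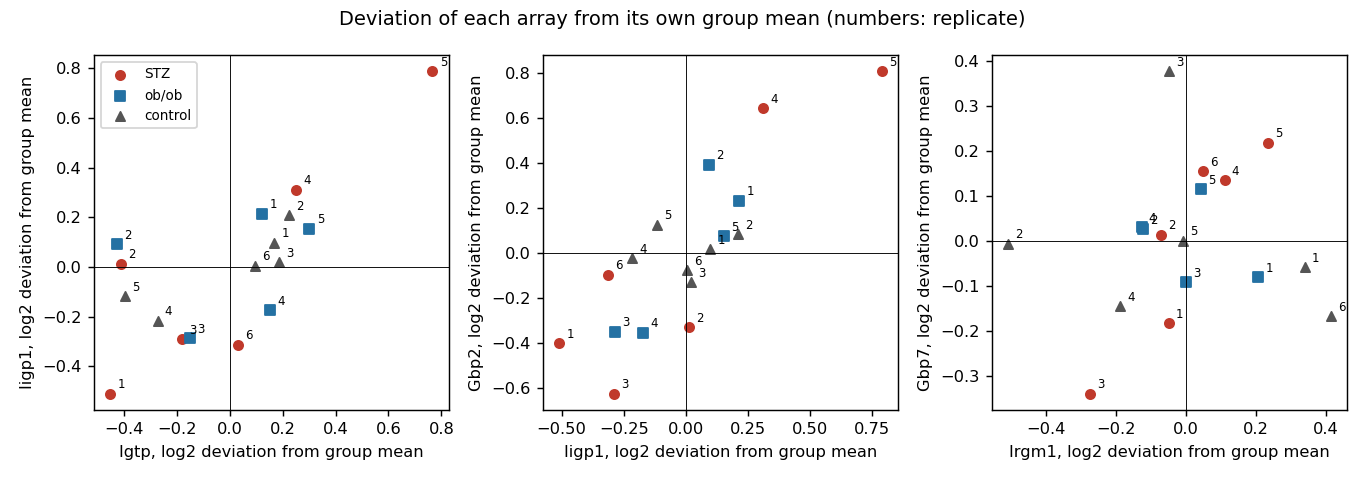
Deviation of each array from its group mean (log2) for 3 pairs of genes, with STZ as red circles, ob/ob as blue squares and control as grey triangles; numbers are replicates. STZ 4 and STZ 5 lie at the upper right of the first and second panels (r of 0.73 and 0.84 over 17 arrays), and Irgm1 and Gbp7 (right panel) line up among STZ arrays but not among control arrays, with r = 0.13 over all 17.

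Over the whole array no transcript, Iigp1 included, passed the test for variation with Igtp. A limma fit of every probe set on Igtp's deviations, with the groups as terms, called 0 of 13575 probe sets (0%, smallest adjusted p = 0.801), with 6.1% (828) at an unadjusted p under 0.05. The 8 genes most like Igtp by r over 17 arrays, of 7989 ranked, are given as a description. Iigp1 was the fifth of them, after Kmt5b (r = 0.78), a histone H4 methyltransferase, Fkbp9 (0.77), a prolyl isomerase of the endoplasmic reticulum, Tfr2 (0.75), a transferrin receptor, and Map2k5 (0.74), a kinase of the ERK5 pathway. After it came Klk6 (0.73), a secreted serine protease, B2m (0.73), the light chain of MHC class I, and Cd74 (0.72), the invariant chain of MHC class II. The 3 genes most opposed to Igtp were Ccl27a (-0.83) and Cxcl12 (-0.79), both chemokines, and Dnajb4 (-0.76), a co-chaperone. Gbp7 ranked 226 and Irgm1 ranked 913 in the same order.

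None of the 8 other family genes with a probe set of their own was called in STZ against control, and all were dim. Of 20 further IRG, GBP and Mx genes listed, 8 had a probe set with a single symbol and none passed the filter. All 8 had a higher mean in STZ than in control arrays, where 56.3% of all probe sets under the filter did, and none separated the groups without overlap. Their median difference was 0.65, against 0.043 over all probe sets under the filter, and ran down to 0.18 ± 0.288 for Mx2 and 0.10 ± 0.266 for Gbp2b. The largest of the 8 was Ifi47, an IRG also called Irgd, at 1.13 ± 0.277 (geometric means of 431 in STZ, 243 in ob/ob and 197 in control arrays). Gbp3, a guanylate-binding protein, followed at 0.75 ± 0.190 (499 in STZ, 235 in ob/ob and 296 in control arrays), and Irgm2 at 0.73 ± 0.171 (564 in STZ, 302 in ob/ob and 340 in control arrays). In the fit without the filter their adjusted p in STZ against control was 0.240 for Ifi47, 0.273 for Gbp3 and 0.216 for Irgm2, so none was called, where 0.0309% of all 22626 probe sets were. In ob/ob arrays 4 of the 8 genes were above control and the median difference was 0.04. Within groups, r with Igtp was 0.69 for Irgm2, 0.44 for Gbp3 and -0.08 for Ifi47, given as a description.

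Of the MHC class I list, which holds the antigen presentation genes that interferon gamma also induces, 3 of 13 tested probe sets were called higher in STZ than in control arrays, where 0.0442% of all tested probe sets were. Like the other lists here, it was chosen with earlier results of these arrays known, so nothing is read from that count. B2m rose by 0.38 ± 0.0591 (8543 in STZ, 6118 in ob/ob and 6560 in control arrays, limma adjusted p = 0.0137). H2-K1, a classical heavy chain, rose by 0.53 ± 0.0892 on probe set 1425336_x_at and by 0.76 ± 0.118 on 1427746_x_at (adjusted p = 0.0219 and 0.0137), on probes whose suffix allows binding to related heavy chains. These calls depend on single arrays. Without STZ array 4 or without STZ array 5, 0 probe sets of the whole array were called in STZ against control, and 1 was without control array 5. The differences of B2m and H2-K1 without these arrays are not given here. The H2-K1 probe sets 1450534_x_at and 1451931_x_at were not called in STZ against control. All 5 tested genes of the list had a higher mean in STZ arrays, and none of the 13 probe sets was called in ob/ob against control.

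The largest differences of the MHC class I list in STZ arrays were on probe sets under the filter. The immunoproteasome subunits Psmb9 and Psmb8 differed by 0.85 ± 0.521 and 0.80 ± 0.196, and the heavy chain H2-D1 by 0.70 ± 0.328. In the fit without the filter their adjusted p was 0.807, 0.243 and 0.711, so none was called. Psmb10, the other inducible subunit of the immunoproteasome, was tested and differed by 0.13 ± 0.0516 (adjusted p = 0.521); it is named to complete the subunits, after its value was seen.

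The machinery that senses and relays interferon showed no call in either contrast. Of 18 measured genes of interferon signalling, 12 were tested and 10 of these had a higher mean in STZ than in control arrays, with a median difference of 0.10, while 7 of 12 did so in ob/ob arrays, with a median of 0.03. Over all tested probe sets the mean was above control in 50.3% in STZ and 49.8% in ob/ob arrays. The largest differences of the 18 in STZ arrays were those of Ifng, interferon gamma itself, at 0.53 ± 0.418, of Socs1, a feedback inhibitor of JAK kinases, at -0.30 ± 0.349, and of the transcription factor Irf7, at 0.21 ± 0.102. Ifng and Socs1 were under the filter, and the adjusted p was 0.869 and 0.92 for them without the filter and 0.616 for Irf7 with it. Ifng averaged 79.4 in STZ, 53.6 in ob/ob and 54.9 in control arrays, signals at which the error is wide.

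Of the antiviral effectors, 5 of 12 measured genes were tested and 0 called, with medians of 0.17 in STZ and -0.09 in ob/ob arrays. Ifitm3, a membrane protein that blocks viral entry, differed by 0.39 ± 0.128 in STZ arrays (adjusted p = 0.387). Oasl2, of the oligoadenylate synthetase family, and Ifit1, which binds viral RNA, were under the filter and differed by 0.33 ± 0.143 and 0.32 ± 0.159 (adjusted p = 0.675 and 0.731 without the filter). The Atg8 conjugation genes, which steer IRG and GBP proteins to vacuoles, were all tested and 0 of 10 were called, with medians of -0.02 in STZ and -0.05 in ob/ob arrays. Atg12 differed by -0.18, Atg16l1 by 0.09 and Atg7 by 0.08 in STZ arrays (adjusted p = 0.615, 0.752 and 0.914).

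**Figure D5:**
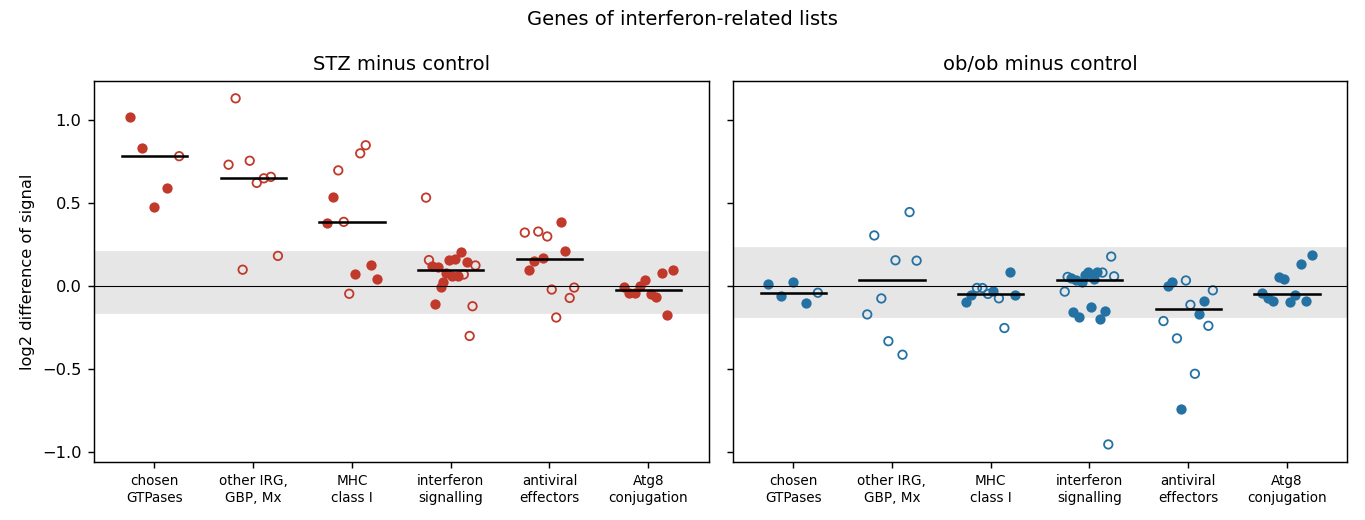
Log2 difference from control of each measured gene of 6 lists in STZ (left panel) and ob/ob (right panel) arrays; filled points passed the signal filter, open points did not, lines are medians and the grey band holds the 5th to 95th percentile of all tested probe sets (-0.16 to 0.20 in STZ, -0.19 to 0.23 in ob/ob). The band comes from brighter probe sets than the open points, which include Gbp2 and all 8 other family genes, so it is no background for them. In STZ the chosen GTPases, which that contrast selected, and 6 of the 8 other family genes lie above the band. In ob/ob arrays the chosen GTPases lie inside it, and the other family genes spread from -0.42 to 0.45.

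Markers of cells that express these GTPases, or could bring them into the tissue, overlapped between the groups. The summed signal of 11 microglial markers ran from 23361 to 24707 in STZ, from 21273 to 25249 in ob/ob and from 23464 to 26583 in control arrays. That of 10 endothelial markers ran from 10343 to 12048 in STZ, from 10231 to 12023 in ob/ob and from 10145 to 11536 in control arrays, with STZ array 5 the highest. The 10 measured T and NK cell markers were all under the filter, with no single signal above 470. They summed to 1009 to 1781 in STZ, 1011 to 1817 in ob/ob and 1064 to 1731 in control arrays. Of the 10, 7 had a higher mean in STZ than in control arrays, and 5 in ob/ob arrays. Their median difference from control was 0.18 in STZ and -0.08 in ob/ob arrays. Their mean log2 signal ran from 6.18 to 7.10 in STZ, 6.33 to 7.04 in ob/ob and 6.33 to 6.92 in control arrays. On that mean STZ array 5 was the highest, and STZ array 4 was above every control array. The blood markers Hba-a1 and Alas2, both under the filter, summed to 412 to 1088 in STZ, 402 to 673.5 in ob/ob and 255 to 504 in control arrays, with STZ array 5 at 1088 and STZ array 4 at 902.

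Within groups, Igtp was set against 12 such measures of the arrays, namely 9 marker lists, 2 ratios of 3′ to 5′ control probes and the median signal. None had an adjusted permutation p under 0.05 over the 12 relations, and the smallest was 0.132, for rho with astrocyte and neuron markers and with the beta-actin 3′ to 5′ ratio. Igtp's largest r was 0.48, with the beta-actin 3′ to 5′ ratio, a sign of RNA quality on which STZ array 4 was the highest of the 17. Igtp's rho with that ratio was 0.61 (unadjusted permutation p = 0.0546 for r and 0.0137 for rho). Its r was 0.44 with endothelial markers, 0.43 with T and NK cell markers, 0.37 with blood markers and -0.11 with microglial markers (permutation p = 0.0968, 0.139, 0.26 and 0.679). The mean of the 5 genes followed endothelial markers more closely, at r = 0.66, then T and NK cell markers at 0.60 and blood markers at 0.56. Its r was 0.53 with neuron markers and also 0.53 with the median signal of the array, and these r values were not tested. The part of blood, vessels or immune cells in the difference between STZ and control arrays was not tested.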

How the data were processed

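Each deposited value is an intensity, the MAS5 signal that the authors computed for a probe set on an array, per the submitters' processing notes. The software's version and detection calls are not given in the sources used here. The array's depth is not a read count, and the number of arrays limits precision. After 64 control probe sets were left out, signals ran from 0.1 to 44117.1 and were log2 transformed. Symbols came from the platform annotation (20380 probe sets with 1 symbol, 691 with several, 1555 with none), and 20351 were matched to the current gene table by Entrez ID. Groups were taken from the sample labels. Group means were fitted with limma 3.58.1 in R 4.3.3 (eBayes with trend, Benjamini-Hochberg over the 13576 probe sets at or above the 40th percentile of mean log2 signal), with all 17 arrays in the fit. Relations between genes used deviations from group means, with 100000 permutations within groups, or every permutation for 6 arrays (Python 3.11.15, SciPy 1.17.1). All tests were two-sided.

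The members and the gene lists were chosen with earlier results of these data known. Genes were named by rule: all member probe sets, list genes past the threshold or with the 3 largest STZ differences, and the 8 genes most like and 3 most opposed to Igtp. The fit was tested on simulated data of 13576 probe sets, where it recovered 72% of true log2 changes of 0.5 and 100% of changes of 1 in STZ against control, and 66% and 100% in ob/ob against control. For covariation with Igtp, over 13575 probe sets, it recovered 42% of slopes of 0.5 and 88% of slopes of 1. These shares do not carry over to the members, whose errors were wider than those of most probe sets. In ob/ob against control the median SE over tested probe sets was 0.085, and tested member probe sets had 0.116 to 0.193. Alternatives changed the filter, normalization, floor, covariates and the arrays used. No protein sequence and no Iigp1 promoter was used here.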

Additional observations from a re-analysis of the deposited data

Results flagged for a closer look

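In 24 groups of arrays, 8 probe sets in each of 3 groups, the highest or lowest array was set against Dixon's 95% limit, which chance passes in about 1 of 20 groups. It was passed in 3. On Iigp1 1419042_at, ob/ob array 5 (22.5) was far under the other ob/ob arrays, with a gap of 0.780 of the group's range, and control array 4 (23.2) was far under the other control arrays, with a gap of 0.883. On Gbp7 1434380_at, control array 3 (618) was far above the other control arrays, with a gap of 0.691.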

How the results depend on the processing

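Under the alternatives run, every member probe set stayed higher in STZ than in control arrays, between 0.77 and 1.15 for Igtp, 0.55 and 0.93 for Iigp1 1419043_a_at, 0.37 and 0.56 for Irgm1, 0.50 and 0.67 for Gbp7 1434380_at and 0.42 and 0.91 for Gbp2 1418240_at. No member was called in ob/ob against control, and 0 probe sets covaried with Igtp, in any of them. In ob/ob against control Igtp ran from -0.07 to 0.27, Iigp1 1419043_a_at from -0.11 to 0.03 and Irgm1 from -0.08 to 0.11. Gbp7 1434380_at ran from -0.13 to -0.03, Gbp2 1418240_at from -0.14 to 0.05 and Iigp1 1419042_at from -0.54 to 0.38. The highest value of Igtp, 0.27 ± 0.250, came with the covariate for markers of regions next to the hypothalamus. Counts over the whole array moved more. In STZ against control, 7 calls became 0 to 18 when arrays were left out singly, with 0 without STZ array 4, 0 without STZ array 5 and 1 without control array 5, and 0 without STZ arrays 4 and 5 together, a setting chosen after seeing the data. In ob/ob against control, 17 calls became 8 to 43 when arrays were left out singly, 29 after quantile normalization, 6 with only the compared groups in the fit and 0 with a covariate for markers of regions next to the hypothalamus. In ob/ob against STZ, 5 calls became 1 to 9 when arrays were left out singly, 3 with the filter at the 60th percentile, and 1 each without the filter, with that covariate, with the replicate block, with only the compared groups, and without STZ arrays 4 and 5. The 2 called correlations, with p adjusted over the 10 pairs, were not called after quantile normalization or without STZ array 1, 4 or 5, and that of Igtp and Iigp1 also not without STZ array 3, control array 4 or ob/ob array 5; Igtp with Irgm1 (0.59) and Iigp1 with Irgm1 (0.56) were called without control array 2. Replicate numbers did not pair the arrays: same-numbered arrays correlated at -0.17 to 0.11, and 2 of 17 correlated best with their own number. With the replicate block there were 5 calls in STZ against control, 19 in ob/ob against control and 1 in ob/ob against STZ. Signals under about 435, which include both probe sets of Gbp2, were not tested in the main setting.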
